A study of Mus musculus with 16 samples.

Results

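Of the 16 arrays of this series, 10 were compared here as 5 against 5. They were selected by position: when the arrays are taken in the order of the deposited value table, positions 1, 2 and 3 of every 3 arrays gave classes A, B and C. Class B held peritumoral2, peritumoral5, peritumoral8, tumoral3 and tumoral6. Class C held peritumoral3, peritumoral6, tumoral1, tumoral4 and tumoral7. The 6 arrays of class A are given beside the results for a few genes only. The classes cut across the tissue labels, with 3 peritumoral and 2 tumoral arrays in class B and 2 peritumoral and 3 tumoral arrays in class C. They were noticed from expression in these same arrays, so the tissue or cell population behind a class is not known, and every class C against class B value is a description without a test.

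The study profiled myeloid cells that were sorted from mouse lung as positive for CD11c, MHC2 and CD11b and that the labels call CD11b+ DCs, where DC stands for dendritic cell. All hosts were immunocompetent C57BL/6 mice, and all carried Lewis lung carcinoma (LLC), a C57BL/6 lung tumour line, inoculated into the airways. The labels name the 8 tumoral arrays for lung tumour and the 8 peritumoral arrays for the lung tissue around it, with no tumour-free control. They give neither ages nor the animal or pool behind an array, so the spread between arrays may in part be technical.

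Conventional dendritic cells arise from precursors that need the receptor Flt3, and the CD11b+ type in lung depends on the transcription factor Irf4, takes antigen to lymph nodes and presents it to T cells. Macrophages and cells derived from monocytes also carry CD11b, CD11c and MHC class II in inflamed or tumour-bearing lung, so a sort on these proteins can hold several populations. Macrophages that live in tumours often face low oxygen, where the transcription factor HIF-1 binds promoters with a core ACGTG and raises genes of glycolysis and oxygen sensing.

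The transcripts that chose the classes separated them, with gaps between the nearest arrays of 2.50 for Scgb1a1, 0.39 for Flt3 and 0.31 for Retnla. Values are log2 expression from the deposited table. They are listed for class B in the order peritumoral2, peritumoral5, peritumoral8, tumoral3, tumoral6 and for class C in the order peritumoral3, peritumoral6, tumoral1, tumoral4, tumoral7. Retnla, which encodes a secreted protein of type 2 activated macrophages, measured 10.71, 9.64, 11.45, 11.35 and 11.51 in class B and 6.71, 7.50, 8.44, 7.81 and 9.33 in class C. The highest class C array, tumoral7, lay below the lowest class B array, peritumoral5. The difference was -2.97 (SE 0.57, n = 5 and 5), a 7.86-fold lower geometric mean. Scgb1a1, the secretoglobin of airway club cells, measured 11.03, 10.55, 10.47, 10.32 and 10.95 in class B and 7.42, 7.51, 7.79, 7.82 and 7.25 in class C, a difference of -3.11 (SE 0.18). Flt3 measured 9.90, 9.64, 10.12, 9.71 and 10.10 in class B and 8.89, 8.73, 8.78, 8.74 and 9.25 in class C, a difference of -1.02 (SE 0.14). Each of these 3 genes was lower in all 5 class C arrays than in any class B array, which is what the choice of the classes used. Class A spanned 10.97 to 12.30 for Retnla, 10.24 to 13.06 for Scgb1a1 (12.20 without peritumoral4) and 9.39 to 10.45 for Flt3.

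**Figure D1:**
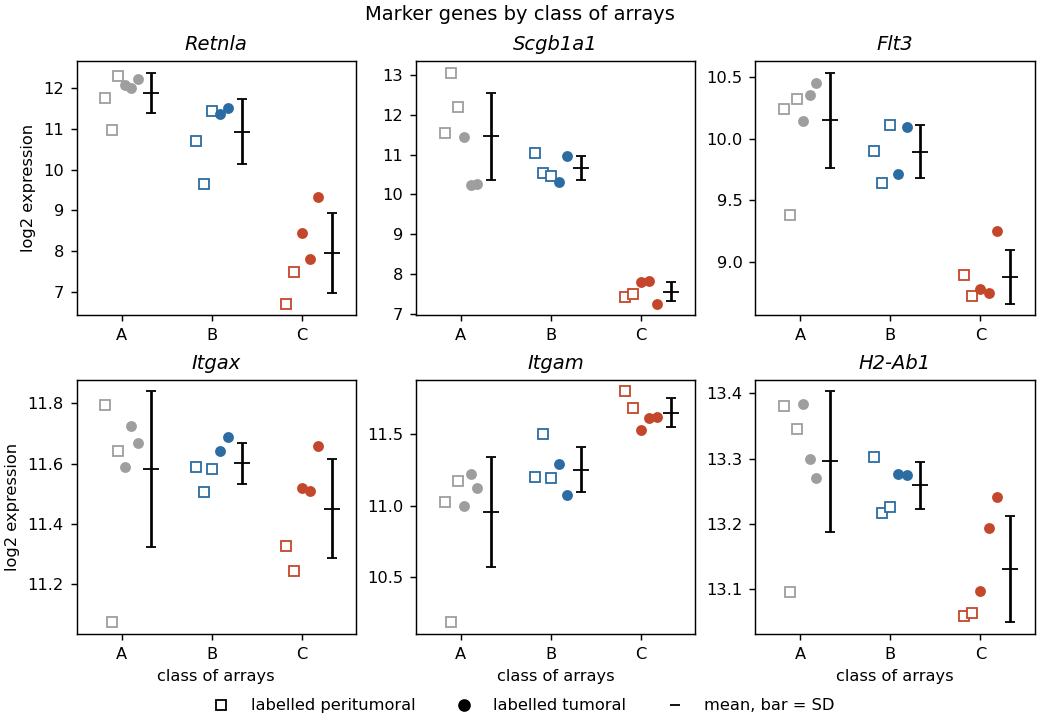
Log2 expression (vertical axes) of 3 genes that mark the classes and 3 genes of the sorting proteins, by class of arrays (horizontal axes). Each point is an array, open squares are labelled peritumoral and filled circles tumoral, and bars give the class mean and SD. Retnla, Scgb1a1 and Flt3 lie lower in every class C array than in any class B array, while the class B and C points of Itgax and H2-Ab1 overlap.

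The genes of the sorting proteins differed by 0.40 or less. Itgax, which encodes CD11c, averaged 11.60 ± 0.07 (SD, n = 5) in class B and 11.45 ± 0.17 in class C, with overlapping arrays. H2-Ab1, an MHC class II beta chain, averaged 13.26 ± 0.04 and 13.13 ± 0.08, also with overlap. Itgam, which encodes CD11b, was 11.20, 11.50, 11.19, 11.29 and 11.08 in class B and 11.80, 11.68, 11.53, 11.62 and 11.62 in class C. Every class C array exceeded every class B array for Itgam, by 0.40 in the mean (SE 0.08).

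Across 19938 genes, 2063 (10.3%) were higher in class C and 1265 (6.34%) were lower without overlap, meaning that all 5 arrays of a class lay beyond all 5 of the other. Centring each array on its median turned these counts to 2741 and 698, which moved the share of higher genes among them from 62.0% to 79.7%. At a difference of at least 2-fold the balance was the other way, with 24 genes (0.12%) higher and 74 genes (0.371%) lower. Array medians were 6.81 to 6.93 in class B and 6.75 to 6.85 in class C, and the median difference of all genes was -0.05. Arrays correlated across genes at r = 0.990 to 0.997 within a class (20 pairs) and at 0.977 to 0.994 between the classes (25 pairs). Families that are dim on these arrays leaned lower in class C, among them 1027 olfactory receptor genes with a median difference of -0.14 (1 higher and 76 lower without overlap). That shift shrank to between -0.03 and -0.06 after rescaling, so small decreases of dim transcripts are to be read beside it. Counts for gene lists are read beside the shares of 10.3% and 6.34% and the all-gene median. Among the 9969 genes above the median level, 1805 were higher and 687 lower without overlap, with a median difference of 0.105. Lists of bright genes are to be read beside those counts as well.

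**Figure D2:**
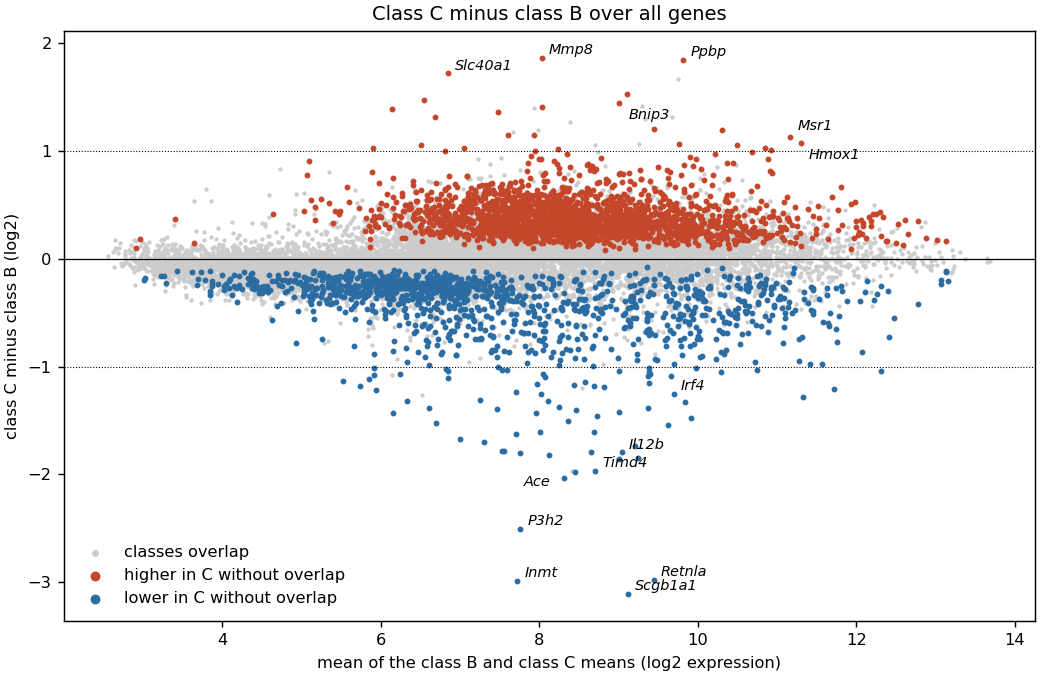
Difference of class means, class C minus class B (vertical axis, log2), against the mean of both class means (horizontal axis, log2 expression) for 19938 genes. Red points are the 2063 genes higher and blue points the 1265 genes lower in class C without overlap, and dotted lines mark a 2-fold difference. The largest decreases, Scgb1a1, Inmt and Retnla, lie near -3, and no increase reaches 2.

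The 12 largest increases without overlap ran from 1.20 to 1.86. Mmp8, a collagenase, measured 7.11, 8.42, 6.79, 7.08 and 6.11 in class B and 8.75, 9.01, 9.15, 9.15 and 8.73 in class C, 3.63-fold higher (log2 difference 1.86, SE 0.39). The class B array peritumoral5 came closest to class C for Mmp8, and the same array was the highest of class B for Ppbp at 10.18. Ppbp, a CXC chemokine precursor of platelets and myeloid cells, was 8.89 ± 0.86 in class B and 10.74 ± 0.41 in class C. Slc40a1, the iron exporter ferroportin, was between 5.74 and 6.22 in class B and at 7.47, 7.48, 7.46, 9.10 and 7.0 in class C. The array tumoral4 stood above the others for Slc40a1, and the other 4 class C arrays still exceeded all of class B. The next increases without overlap were Nxpe5 (1.52, SE 0.18), the aldo-keto reductase Akr1b8 (1.47, SE 0.22), the mitophagy receptor Bnip3 (1.44, SE 0.31) and the ubiquitin ligase Rnf128 (1.40, SE 0.24). Cd59a, an inhibitor of complement lysis, differed by 1.38 (SE 0.33), the NKG2D ligand gene Raet1d by 1.31 (SE 0.26), Gm5150 by 1.21 (SE 0.17) and the macrophage surface protein gene Ms4a4a by 1.20 (SE 0.19). Ak4, a mitochondrial adenylate kinase, was higher by 1.36 (SE 0.27) on its brightest probe set and by 0.74 when its probe sets were averaged.

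The largest decreases other than the marker genes included enzymes, adhesion molecules and a cytokine. Inmt, a methyltransferase abundant in lung tissue, measured 9.41, 9.21, 9.07, 9.02 and 9.33 in class B and 6.33, 6.42, 6.33, 6.24 and 5.80 in class C. That difference of -2.99 (SE 0.13) compares with SDs of 0.17 and 0.25 within the classes. P3h2, a prolyl hydroxylase that acts on collagens, measured 9.09, 8.05, 9.19, 9.05 and 9.65 against 6.68, 6.71, 6.31, 6.38 and 6.45, a 5.66-fold lower geometric mean. Ace, the angiotensin-converting enzyme, was 4.10-fold lower (-2.04, SE 0.27). Timd4, a phosphatidylserine receptor of resident macrophages, was 9.68 ± 0.39 in class B and 7.72 ± 0.30 in class C. Adgre4, an adhesion receptor of myeloid cells, differed by -1.86 (SE 0.19), the tight junction gene Cldn1 by -1.85 (SE 0.16) and Hepacam2 by -1.80 (SE 0.34). Aldh1a2, which makes retinoic acid, measured 8.93, 8.20, 9.20, 9.14 and 9.72 in class B and 7.06, 6.77, 7.31, 7.19 and 7.75 in class C. No class C array reached the class B range for any of these genes.

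Genes of dendritic cell identity were lower in class C. Of 15 measured conventional dendritic cell genes, 8 were lower and 0 higher without overlap, and the class mean was lower for all 15, with a median difference of -0.68. Flt3, which marked the classes, is among the 8. Without it 7 of 14 were lower, with a median of -0.56. In bulk sorted samples, fewer cells of a type and less RNA per cell cannot be told apart. Irf4 measured 10.35, 10.19, 10.28, 10.20 and 10.58 in class B and 9.0, 8.77, 9.17, 9.0 and 9.39 in class C. The nearest arrays of the classes were 0.79 apart for Irf4, and the geometric mean was 2.38-fold lower. Bcl11a, a transcription factor of the dendritic cell lineage, was 8.60 ± 0.25 in class B and 7.69 ± 0.08 in class C. Dpp4, the surface peptidase CD26, was 10.25 ± 0.18 and 9.35 ± 0.33. Zbtb46, a transcription factor that marks conventional dendritic cells, measured 8.26, 7.95, 8.19, 7.92 and 8.22 in class B and 7.42, 7.42, 7.56, 7.27 and 7.49 in class C.

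Among 13 genes of type 2 conventional dendritic cells, which are the CD11b+ kind, 7 were lower and 1 higher without overlap (median -0.32). Sirpa was the higher one (0.22, SE 0.03). Cd209a, a C-type lectin of these cells, measured 12.41, 11.97, 12.40, 12.30 and 12.52 in class B and 11.36, 10.74, 11.16, 10.88 and 11.43 in class C. The whole Cd209 lectin family shared this direction, with lower class C means for all 7 genes, no overlap for 4 and a median of -1.21. Cd209b was 3.19-fold, Cd209c 3.09-fold and Cd209d 2.83-fold lower, and probes of such near-identical paralogues may share signal. Cd7 differed by -1.19 (SE 0.14), and the T cell chemokine Ccl17 averaged 12.83 ± 0.18 in class B and 11.78 ± 0.36 in class C. Type 1 conventional dendritic cell genes were mixed, with 1 of 11 higher and 1 lower without overlap and a median of -0.18. Wdfy4, needed for cross-presentation, was the lower one (-0.67, SE 0.14), and Ppt1, a lysosomal thioesterase, the higher one (0.20, SE 0.06). Of 7 plasmacytoid dendritic cell genes 3 were lower and 0 higher without overlap (median -0.38), Siglech by -0.53 (SE 0.05), Ccr9 by -0.54 (SE 0.10) and Ly6d by -0.38 (SE 0.08). Their class B means of 6.88, 6.59 and 7.11 lay near the array medians. The brighter members Tcf4 (-0.11, SE 0.07), Bst2 (0.26, SE 0.16) and Spib (-0.47, SE 0.17) had overlapping arrays.

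Maturation and co-stimulation genes lay lower as well. Of 21 measured, 9 were lower and 0 higher without overlap, with a median of -0.52. Il12b, the shared subunit of interleukins 12 and 23, measured 9.90, 9.71, 10.01, 9.45 and 10.60 in class B and 7.97, 8.0, 8.04, 8.0 and 8.69 in class C. The class C arrays other than tumoral7 lay within 0.1 of each other, and the geometric mean was 3.47-fold lower than in class B. Ccl22, a chemokine of mature dendritic cells, measured 12.06, 11.68, 12.03, 11.70 and 12.37 in class B and 10.45, 10.35, 10.74, 10.56 and 11.30 in class C. Icosl, a co-stimulatory ligand, averaged 10.31 ± 0.20 and 9.50 ± 0.09, and Tnfsf9, the ligand of 4-1BB, 11.23 ± 0.10 and 10.54 ± 0.14. Ccr7, the receptor that guides dendritic cells to lymph nodes, measured 12.36, 12.02, 12.13, 11.94 and 12.25 in class B and 10.99, 11.10, 11.51, 11.33 and 11.90 in class C. For Ccr7 the gap between the classes was narrow, because tumoral7 at 11.90 lay just under tumoral3 at 11.94. It was the only one of 12 chemokine receptor genes without overlap.

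Of 11 MHC class II presentation genes, 5 were lower and 1 higher without overlap (median -0.12). H2-Oa, the alpha chain of the peptide-loading regulator H2-O, measured 9.85, 9.58, 9.99, 10.03 and 10.13 in class B and 8.97, 8.39, 8.88, 8.83 and 9.07 in class C. H2-Ob, its beta chain, was 10.49 ± 0.22 and 9.47 ± 0.27. Both H2-O chains were thus about 1 log2 unit lower, whereas H2-Eb1, a chain of the class II molecule itself, differed by -0.21 (SE 0.04). Lgmn, a lysosomal asparaginyl protease that processes antigen, was the one higher gene, at 12.01 ± 0.14 and 12.42 ± 0.14. The processing genes Ctss (0.16, SE 0.09) and Ifi30 (0.01, SE 0.03) and the peptide-loading gene H2-DMa (-0.16, SE 0.11) had overlapping arrays.

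Macrophage genes were mostly higher in class C. Of 19 measured macrophage genes, 6 were higher and 1, Timd4, was lower without overlap, with a median of 0.32. The log2 of the list's summed linear levels ran from 15.64 to 15.88 in class B and from 15.97 to 16.18 in class C. Trem2, a lipid-sensing receptor, measured 9.97, 10.18, 9.72, 9.93 and 9.43 in class B and 10.51, 10.74, 10.51, 10.49 and 10.37 in class C, and C1qa, a complement subunit, averaged 11.16 ± 0.17 and 11.61 ± 0.13. Pf4, a CXC chemokine made by macrophages and platelets, averaged 9.97 ± 0.31 and 11.03 ± 0.16. Genes of lipid-associated macrophages followed, with 6 of 13 higher, 0 lower and a median of 0.44. Msr1, the class A scavenger receptor, measured 10.67, 11.21, 10.41, 10.72 and 9.998 in class B and 11.91, 11.79, 11.57, 11.75 and 11.62 in class C. The class C arrays of Msr1 spanned less than 0.4 and all exceeded class B, whose highest array was again peritumoral5. The protease genes Ctsl (1.0, SE 0.26) and Mmp12 (0.39, SE 0.09) were also higher without overlap.

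Alveolar macrophage genes did not share that direction. Of 12 measured, 0 were higher and 4 lower without overlap (median -0.32), namely the lectin gene Siglecf (-0.60, SE 0.07), the lipid droplet gene Cidec (-0.37, SE 0.09), Krt79 (-0.34, SE 0.07) and the nuclear receptor gene Pparg (-0.25, SE 0.06). Class C means were lower for 9 and higher, with overlap, for 3: Atp6v0d2 (0.87, SE 0.24), Fabp4 (0.58, SE 0.23) and Abcg1 (0.12, SE 0.06). The list's summed levels overlapped, at 12.54 to 12.84 in class B and 12.56 to 12.88 in class C. Monocyte genes were mixed, with 3 of 14 lower and 0 higher, and their median of -0.07 turned to 0.01 after median centring. Besides Ace, Spn (-0.39, SE 0.08) and Nr4a1 (-0.30, SE 0.05) were lower, genes of a surface sialoprotein and a transcription factor of patrolling monocytes. Other genes of those cells overlapped, with the chemokine receptor gene Cx3cr1 at 0.28 (SE 0.08) and Treml4 at -0.09 (SE 0.22). Of 15 genes of type 2 activation, 3 were lower and 0 higher without overlap: Retnla, Ccl17 and the haemoglobin scavenger receptor gene Cd163. The separation of Retnla was fixed by the choice of classes, and without it 2 of 14 were lower. Arg1, the arginase of such macrophages (1.31, SE 0.48), and the chemokine gene Ccl8 (1.19, SE 0.58) had higher class C means with overlapping arrays, and the list's median of -0.04 turned to 0.03 with median centring. Cd163 averaged 7.10 ± 0.20 in class B and 6.12 ± 0.26 in class C.

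Hmox1, the haem-degrading enzyme, was chosen after its values were seen. It measured 10.76, 11.31, 10.86, 10.58 and 10.35 in class B and 11.70, 11.84, 11.76, 12.17 and 11.75 in class C, 2.10-fold higher. The highest class C arrays of both Hmox1 and Slc40a1 came from tumoral4. Among 17 antioxidant genes, 2 were higher and 2 lower without overlap. Gclm, a subunit of the enzyme that limits glutathione synthesis, averaged 8.92 ± 0.15 and 9.65 ± 0.30, while the metallothionein gene Mt2 (-0.42, SE 0.11) and Nfe2l2, the gene of the regulator NRF2 (-0.33, SE 0.07), were lower.

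**Figure D3:**
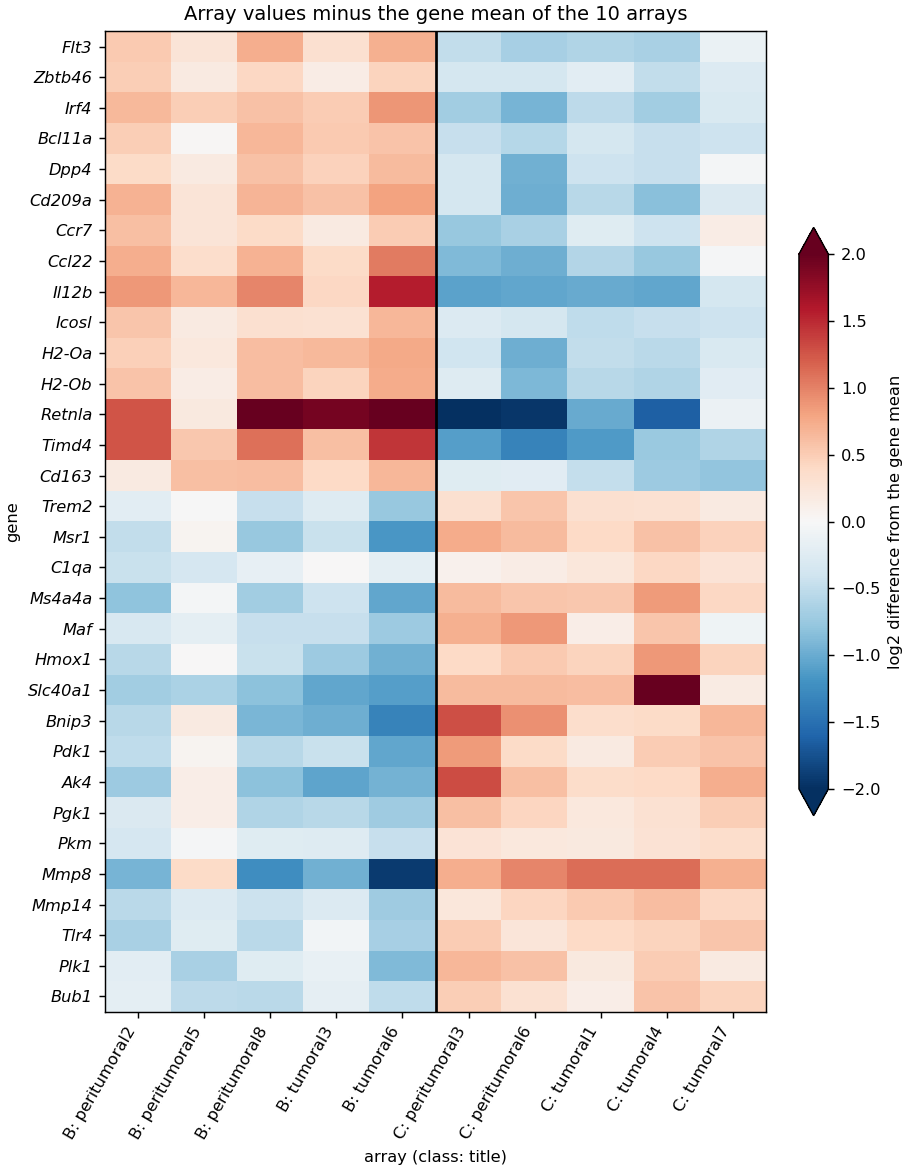
Log2 expression of named genes (rows) in the 10 arrays (columns, class and title), each minus the gene's mean over the 10 arrays, with colours capped at 2 on either side. Dendritic cell and co-stimulation genes at the top are mostly above their mean in the class B arrays on the left, and macrophage, hypoxia, matrix and mitosis genes at the bottom are mostly above it in the class C arrays on the right. Peritumoral5, the second column, is the palest class B array for many of the rows.

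All but 1 of the hypoxia and glycolysis genes without overlap were higher in class C. Of 26 measured hypoxia response genes, 5 were higher and 1 lower without overlap (median 0.18), and of 17 glycolysis genes 6 were higher and 0 lower (median 0.45). The hypoxia share of higher genes was close to that of all genes above the median level, 1805 of 9969 with a median of 0.105. Promoter sequences from 250 bases upstream to 50 bases downstream of the start, from RefSeq on the GRCm38.p6 build, were matched for 22 and 17 of these genes. The letters ACGTG, searched on both strands so that CACGT counts too, occurred in 18 of the 22 hypoxia promoters (81.8%) and 13 of the 17 glycolysis promoters (76.5%). They occurred in 21.8% of all 27025 promoters in the table and in 24.4% of the 15562 that belong to measured genes. Hypoxia and glycolysis genes are known partly through this sequence, so those shares describe the lists. Among promoters of genes at least 2-fold higher in class C, 9 of 21 held the letters (42.9%), against 12 of 55 (21.8%) for genes at least 2-fold lower. Both of these sets were picked by their differences in these same arrays, and a part played by HIF-1 was not tested.

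The promoters of 4 members without overlap are shown because each holds the letters, in capitals, and not as a sample of all. Bnip3 lies on the minus strand at chr7:138909457-138909756, P4ha1 on the plus strand at chr10:59323046-59323345, Pgk1 on the plus strand at chrX:106186850-106187149 and Pgam1 on the plus strand at chr19:41911621-41911920.
Bnip3: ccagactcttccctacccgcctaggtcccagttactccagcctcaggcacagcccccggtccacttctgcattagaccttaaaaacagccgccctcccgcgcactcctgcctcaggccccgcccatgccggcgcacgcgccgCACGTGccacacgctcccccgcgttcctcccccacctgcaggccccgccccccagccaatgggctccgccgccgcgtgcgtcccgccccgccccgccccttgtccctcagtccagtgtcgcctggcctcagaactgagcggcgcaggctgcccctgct
P4ha1: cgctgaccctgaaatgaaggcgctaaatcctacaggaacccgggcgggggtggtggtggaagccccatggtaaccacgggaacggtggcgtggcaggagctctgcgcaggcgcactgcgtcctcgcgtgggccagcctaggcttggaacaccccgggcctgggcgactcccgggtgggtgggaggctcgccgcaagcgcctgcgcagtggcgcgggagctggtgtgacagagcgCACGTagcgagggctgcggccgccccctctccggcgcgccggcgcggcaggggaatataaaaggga
Pgk1: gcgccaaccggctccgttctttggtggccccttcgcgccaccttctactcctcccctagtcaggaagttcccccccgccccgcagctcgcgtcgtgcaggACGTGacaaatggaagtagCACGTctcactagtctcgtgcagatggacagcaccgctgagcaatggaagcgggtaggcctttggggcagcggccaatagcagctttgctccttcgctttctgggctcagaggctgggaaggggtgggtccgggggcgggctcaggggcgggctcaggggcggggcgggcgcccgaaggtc
Pgam1: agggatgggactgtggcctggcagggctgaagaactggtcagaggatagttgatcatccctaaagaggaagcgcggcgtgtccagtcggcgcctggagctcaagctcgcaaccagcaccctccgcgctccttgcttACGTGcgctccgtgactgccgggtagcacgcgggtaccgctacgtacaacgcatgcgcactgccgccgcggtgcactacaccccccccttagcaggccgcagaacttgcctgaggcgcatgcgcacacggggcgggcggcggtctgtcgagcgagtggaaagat
In Bnip3 the capitals CACGTG are a single palindrome that both strands read as a match, 108 bases before the start, and it is also an E-box. In P4ha1 the match lies 16 bases before the start, in Pgk1 matches begin 150 and 131 bases before it, and in Pgam1 114 bases before it. The motif was not found in the windows of Pdk1. Flt3, which was lower in class C, holds the same CACGTG palindrome 3 bases after its start.

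The arrays of these 4 genes did not overlap, with gaps between the classes of 0.16, 0.11, 0.07 and 0.15 in the order shown. Bnip3 measured 8.46, 9.19, 8.09, 8.03 and 7.67 in class B and 10.30, 9.92, 9.35, 9.39 and 9.67 in class C, 2.72-fold higher. Class A arrays for Bnip3 ranged from 7.31 to 7.85. P4ha1, a collagen prolyl hydroxylase subunit, measured 9.74, 9.99, 9.53, 9.64 and 9.48 in class B and 10.40, 10.10, 10.22, 10.25 and 10.40 in class C. Here the classes came close, with peritumoral5 at 9.99 and peritumoral6 at 10.10. Pgk1, phosphoglycerate kinase, measured 10.62, 11.04, 10.31, 10.35 and 10.19 against 11.51, 11.33, 11.11, 11.21 and 11.40, and class A spanned 9.34 to 9.91. Pgam1, phosphoglycerate mutase, averaged 10.84 ± 0.29 and 11.42 ± 0.06. Peritumoral5 was the highest class B array for all 4 genes.

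Of the other hypoxia genes, Pdk1, a pyruvate dehydrogenase kinase, measured 7.44, 8.0, 7.40, 7.50 and 6.91 in class B and 8.80, 8.33, 8.13, 8.46 and 8.52 in class C. Mif, a cytokine, averaged 11.48 ± 0.27 and 12.14 ± 0.11. Pkm, pyruvate kinase, averaged 10.53 ± 0.16 and 11.06 ± 0.06, and the hexokinase gene Hk3 7.91 ± 0.13 and 8.47 ± 0.26. Car9, a carbonic anhydrase, was the remaining higher gene without overlap (0.35, SE 0.06). Vegfa differed by 0.34 (SE 0.13) and the glucose transporter gene Slc2a1 by 0.45 (SE 0.17) with overlapping arrays. Bhlhe40, a transcriptional repressor, was the lower gene without overlap (-0.51, SE 0.05). Hilpda, a lipid droplet protein induced by low oxygen, was at -0.01 (SE 0.10). These last 5 genes were chosen after their values were seen.

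**Figure D4:**
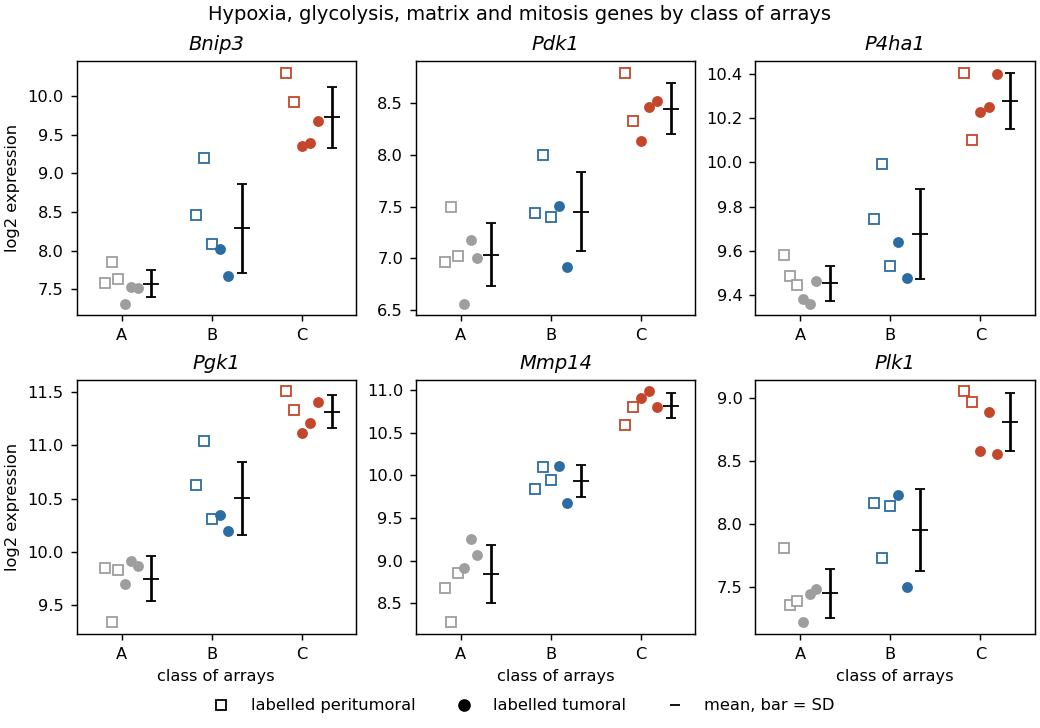
Log2 expression (vertical axes) of 3 hypoxia response genes, a glycolysis gene, a matrix protease gene and a mitotic kinase gene by class of arrays (horizontal axes). Each point is an array, open squares are labelled peritumoral and filled circles tumoral, and bars give the class mean and SD. All class C arrays lie above all class B arrays, and the highest class B point of Bnip3, Pdk1, P4ha1 and Pgk1 is a peritumoral array.

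All 26 measured genes of oxidative phosphorylation and the citrate cycle had a higher class C mean, 5 of them without overlap, with a median of 0.20. Idh2, a mitochondrial isocitrate dehydrogenase, measured 9.12, 9.12, 9.46, 9.56 and 9.23 in class B and 9.81, 9.76, 9.83, 10.05 and 9.86 in class C. Sdhc, a subunit of complex II, averaged 9.59 ± 0.05 and 10.02 ± 0.15. The wider family of 93 respiratory chain and ATP synthase genes had 25 higher and 1 lower without overlap (median 0.21). Of 23 lysosome genes, 8 were higher and 0 lower (median 0.29), among them the protease gene Ctsl given above, the proton pump subunit gene Atp6v1a (0.45, SE 0.07), the acid glucosidase gene Gaa (0.44, SE 0.08) and the cholesterol transporter gene Npc1 (0.38, SE 0.10). The largest lysosome difference was that of the protease gene Ctsk (1.42, SE 0.39), whose arrays overlapped. Of 19 genes of lipid and cholesterol handling only Lpl, lipoprotein lipase, was without overlap (0.28, SE 0.06), and that list's median of 0.10 turned to -0.0025 with cyclic loess.

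Of 21 matrix remodelling genes, 7 were higher and 1 lower without overlap (median 0.35). Mmp14, a membrane-bound protease that activates other metalloproteinases, measured 9.83, 10.10, 9.95, 10.10 and 9.67 in class B and 10.59, 10.80, 10.90, 10.98 and 10.79 in class C. Mmp13, a collagenase, measured 9.39, 9.26, 9.39, 9.43 and 10.10 against 10.43, 10.13, 10.29, 10.61 and 10.40, and the class B array tumoral6 nearly met class C. Timp3, a protease inhibitor of tissue cells, was the lower gene (-0.87, SE 0.21). Over all 22 matrix metalloproteinase genes, 4 were higher and 3 lower without overlap, with a median of 0.04. Pattern receptor genes had 5 of 16 higher and 0 lower (median 0.29). Tlr4, the endotoxin receptor, measured 8.02, 8.42, 8.13, 8.61 and 8.0 in class B and 9.18, 8.90, 9.06, 9.12 and 9.22 in class C. The lectin receptor genes Clec4n (0.79, SE 0.16) and Clec5a (0.73, SE 0.11) and the RNA sensor gene Tlr8 (0.53, SE 0.14) were higher too. Among 12 Fc and complement receptor genes, 4 were higher and 0 lower (median 0.34), with Fcgr3 at 11.34 ± 0.16 and 11.72 ± 0.11, C3ar1 at 12.04 ± 0.14 and 12.34 ± 0.08 and Fcgr2b at 12.31 ± 0.07 and 12.47 ± 0.04.

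Few genes of soluble mediators were without overlap, and those went in both directions. Of 23 inflammatory cytokine and chemokine genes, 2 were higher and 1 lower without overlap (median 0.05). The monocyte attractant gene Ccl12 averaged 7.56 ± 0.38 and 8.48 ± 0.23, Ccl9 differed by 0.27 (SE 0.06) and Ccl5, which attracts T cells, by -0.58 (SE 0.17). Of 18 immune inhibition genes 1 was higher, the checkpoint ligand gene Vsir (0.38, SE 0.09), and 1 lower, Havcr2 (-0.37, SE 0.08). The class C mean was higher for 15 of the 18 (median 0.21). Of 23 growth factor genes, Pdgfa (0.49, SE 0.09) and Grn (0.35, SE 0.09) were higher and the dim Tgfb2 (-0.27, SE 0.06) lower. The class C mean was higher for 16 of the 23 (median 0.18), with summed levels of 13.99 to 14.21 in class B and 14.23 to 14.36 in class C. Of 15 prostaglandin and leukotriene genes, Alox5, the lipoxygenase that starts leukotriene synthesis, measured 9.36, 9.19, 9.56, 9.44 and 9.72 in class B and 8.86, 8.87, 8.42, 8.18 and 8.33 in class C. The prostaglandin receptor gene Ptger4 was lower by -0.70 (SE 0.11), and the phospholipase gene Pla2g4a, which frees arachidonic acid, was higher by 0.63 (SE 0.11). None of 18 interferon response genes was without overlap (median 0.15), and Ifit2 differed by 0.67 (SE 0.37) overall but by -0.07 among peritumoral arrays. Immediate-early and heat-shock genes split, with Egr3 (-0.93, SE 0.25) and Junb (-0.36, SE 0.11) lower and the chaperone genes Dnajb1 (0.81, SE 0.15) and Hsp90aa1 (0.35, SE 0.08) higher.

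Cell division genes had higher class C means throughout. All 30 measured cell cycle genes had a higher class C mean, 10 of them without overlap, and the median was 0.38 (0.273 to 0.455 over the other scalings). Plk1, a mitotic kinase, measured 8.17, 7.73, 8.15, 8.23 and 7.50 in class B and 9.05, 8.97, 8.58, 8.89 and 8.55 in class C. Bub1, a spindle checkpoint kinase, measured 8.31, 7.99, 7.97, 8.33 and 8.0 against 9.0, 8.81, 8.64, 9.07 and 8.95. Both genes had every class C array above every class B array. Cenpe, a kinetochore motor, and Bub1b differed by 0.67 (SE 0.13) and 0.66 (SE 0.15). Histone genes went along, with 13 of 35 higher and 0 lower (median 0.23). H2bc4 measured 10.11, 10.13, 10.02, 10.55 and 10.16 in class B and 11.08, 10.98, 11.29, 11.17 and 11.38 in class C, and H3c15 differed by 1.02 (SE 0.25). Only 1 of 19 proteasome genes, Psmb1, was without overlap (0.34, SE 0.06).

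**Figure D5:**
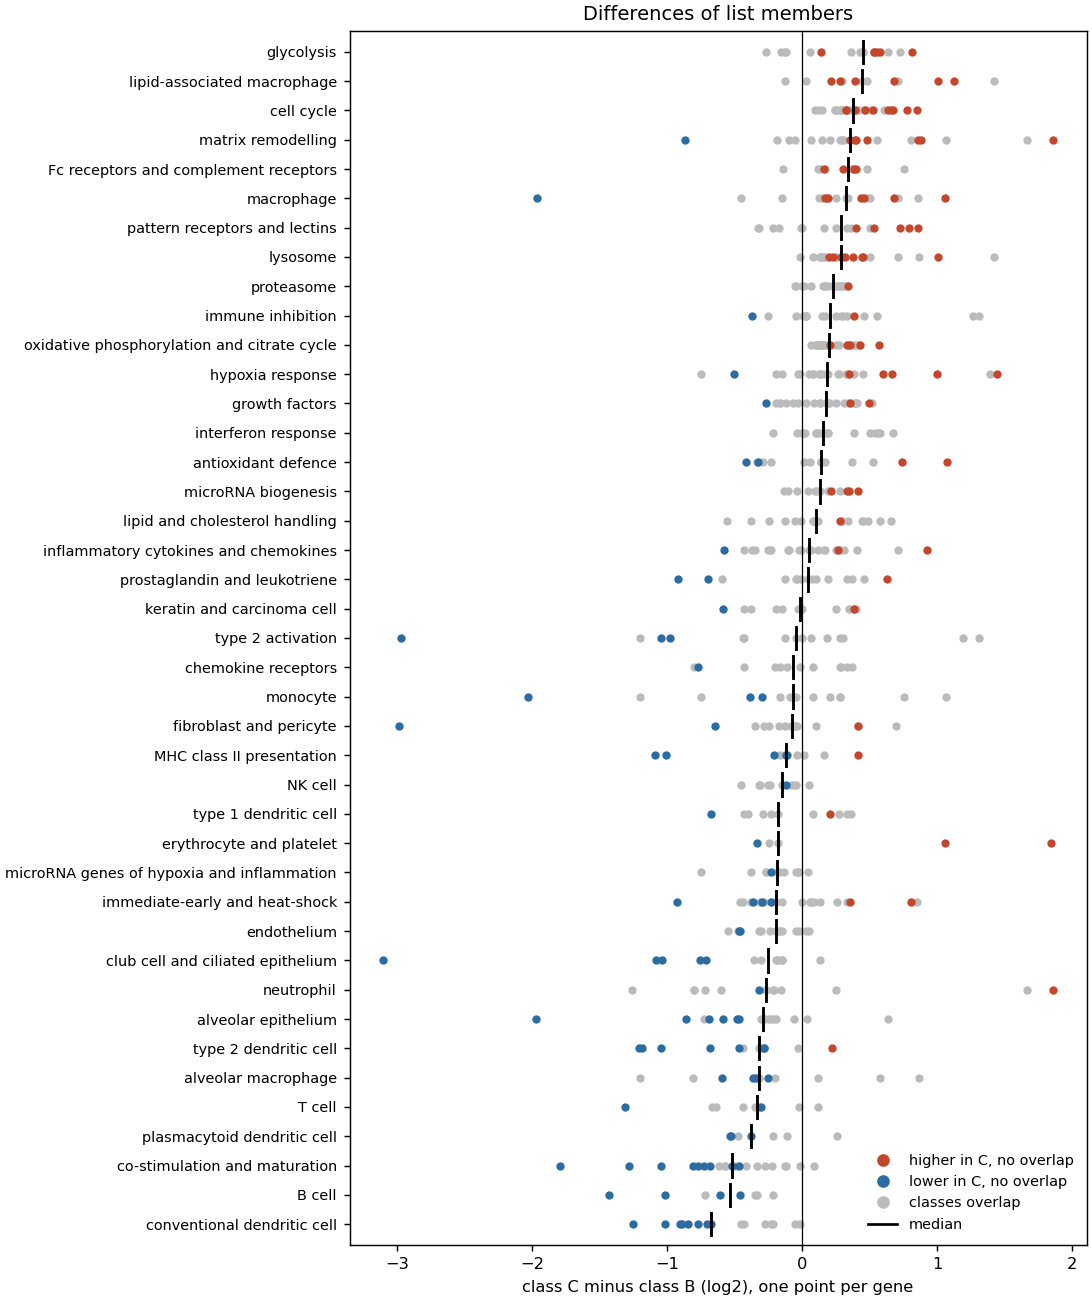
Class C minus class B differences (horizontal axis, log2) of the measured members of each gene list (rows, ordered by median), leaving out the sorting and class marker genes as lists of their own. Each point is a gene, red where it is higher and blue where it is lower in class C without overlap, grey where the classes overlap, and the black tick is the list's median. Medians run from -0.68 for conventional dendritic cell genes to 0.45 for glycolysis genes.

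Transcripts of other lung cells moved with the classes as well. Of 14 club cell and ciliated cell genes, 5 were lower and 0 higher in class C (median -0.25), and the list's summed level ran from 11.90 to 12.25 in class B and from 10.90 to 11.15 in class C. Both include Scgb1a1, which marked the classes. Without it 4 of 13 were lower (median -0.20), and the summed levels were 11.31 to 11.61 and 10.78 to 11.03. Cyp2f2, a club cell enzyme, measured 7.88, 7.49, 7.26, 6.90 and 7.34 in class B and 5.87, 6.53, 6.71, 6.17 and 6.38 in class C. Tppp3, a microtubule gene of ciliated cells, averaged 10.20 ± 0.12 and 9.12 ± 0.22. Of 16 alveolar epithelium genes, 6 were lower and 0 higher, with summed levels of 12.24 to 12.64 and 11.97 to 12.18. Sftpc, surfactant protein C, measured 9.12, 9.97, 9.75, 8.92 and 9.40 in class B and 7.03, 6.99, 7.97, 7.87 and 7.42 in class C. All class C arrays were lower than all class B arrays for these genes. In class A the highest values, 12.81 for Sftpc and 12.38 for Cyp2f2, both came from peritumoral4, and the next highest were 10.45 and 9.43. Epcam, an epithelial adhesion gene, differed by -0.59 (SE 0.07).

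The other marker lists gave smaller differences. Endothelial genes had 2 of 15 lower, Ramp2 (-0.47, SE 0.12) and Cldn5 (-0.46, SE 0.10), with summed levels of 11.34 to 11.77 in class B and 11.22 to 11.34 in class C. Fibroblast and pericyte genes had 2 of 16 lower and 1 higher, the microfibril gene Mfap4 (-0.65, SE 0.13) beside Inmt, and the actin gene Acta2 (0.41, SE 0.10), with summed levels of 11.72 to 11.91 and 11.38 to 12.05. B cell genes had 4 of 8 lower, with summed levels of 10.02 to 10.25 and 9.37 to 9.76. Ms4a1, which encodes CD20, measured 6.32, 6.71, 6.98, 6.86 and 7.43 in class B and 5.05, 5.04, 5.72, 5.86 and 5.48 in class C, and Cd79a, a B cell receptor subunit, differed by -1.01 (SE 0.21). T cell genes had 2 of 10 lower, Cd2 (-1.31, SE 0.18) and the dim Cd3d (-0.30, SE 0.07), with summed levels of 11.75 to 12 and 11.51 to 11.99. NK cell genes had only the dim Klre1 lower (-0.12, SE 0.03), and their summed levels, 9.66 to 9.87 and 9.33 to 9.81, overlapped. Neutrophil genes had Mmp8 higher and Ltf lower (-0.32, SE 0.08), a median of -0.27, and summed levels of 10.70 to 12.45 and 11.18 to 12.64. Of 12 keratin and carcinoma cell genes 1 was higher, Igf2bp3 (0.38, SE 0.15), and 1 lower, Epcam, with overlapping sums of 11.85 to 12.03 and 11.56 to 12.10. Of 5 erythrocyte and platelet genes, Ppbp and Pf4 were higher and the platelet receptor gene Gp9 was lower (-0.33, SE 0.07). The part that these cell types play in the differences above was not tested.

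MicroRNA genes as a family leaned lower in the deposited scaling. Of 302 microRNA genes, 0 were higher and 18 lower without overlap, with a median of -0.13. The share of lower genes was close to the 6.34% of all genes. Their median shrank to between -0.04 and -0.05 after rescaling, as for the olfactory receptor genes. Among 14 linked to hypoxia or inflammation only Mir210, a target of HIF-1, was without overlap, and it measured 8.60, 8.57, 8.69, 8.52 and 8.74 in class B and 8.47, 8.50, 8.48, 8.17 and 8.35 in class C. The nearest Mir210 arrays of the classes were only 0.02 apart. With median centring none of the 14, Mir210 included, was without overlap. The probe set reads the precursor locus and does not separate its mature arms, which are shown from RefSeq with the seed, bases 2 to 8, in capitals because Mir210 went opposite to most hypoxia genes.
mmu-miR-210-3p: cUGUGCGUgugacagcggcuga
mmu-miR-210-5p: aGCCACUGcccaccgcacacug
The Mir210 difference was -0.23 (SE 0.07), beside the median of -0.13 for all microRNA genes. Of 13 genes of microRNA biogenesis, 4 were higher and 0 lower, Prkra (0.42, SE 0.10), Dgcr8 (0.35, SE 0.05), Xpo5 (0.34, SE 0.07) and Dicer1 (0.21, SE 0.07). These counts stayed at 4 and 0 with median centring. With quantile normalization and with cyclic loess they became 1 and 1. The list's median of 0.13 fell to 0.04 and 0.05 under those 2 scalings.

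The tissue label is a contrast that the classes did not use, and both labels lie in both classes. Peritumoral arrays all precede tumoral arrays in the table, so label and position cannot be told apart. Because expression followed position in the table, whether each title gives the tissue of its cells could not be checked, and the contrast is between arrays labelled tumoral and arrays labelled peritumoral. With the class as a term, limma's moderated test called 406 of 19938 genes at a Benjamini-Hochberg adjusted p under 0.05 (2.04%), of which 262 (1.31%) were higher and 144 (0.722%) lower in tumoral arrays. The smallest adjusted p was 0.0337, and 4288 genes had an unadjusted p under 0.05. The call depended on single arrays. It fell to 0 genes without peritumoral2, peritumoral6, tumoral1, tumoral4 or tumoral7, to 1 gene without peritumoral3 and to 23 without peritumoral5, and it rose to 645 without tumoral6 and to 1797 without peritumoral8. It also fell to 0 with cyclic loess and without the class term, and reached 1436 with the replicate number as a random block. By limma, the genes with the smallest p-values included the lectin gene Clec4b1 (0.87 higher in tumoral arrays, SE 0.12) and Fthl17f, a ferritin-like gene (-0.47, SE 0.06), each with an adjusted p of 0.0337. Clec4b1 averaged 6.86 in peritumoral and 7.67 in tumoral arrays of class B, and 5.86 and 6.77 in those of class C.

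The genes that mark the classes did not pass that label test. Retnla was higher in tumoral arrays by 1.13 (SE 0.32, limma adjusted p = 0.0761), with means of 10.60 and 11.43 in class B and 7.10 and 8.53 in class C. By limma, the adjusted p of Retnla fell under 0.05 only with the replicate block (0.037) and without peritumoral8 (0.0128). Under all other alternatives it lay between 0.0625 (only genes above the median level) and 0.823 (no class term). Flt3 differed by 0.07 (SE 0.12, limma adjusted p = 0.778) and Scgb1a1 by 0.06 (SE 0.15, limma adjusted p = 0.854). Few list members were called, and those named here were chosen after their values were seen. Of 26 hypoxia genes, Egln3, an oxygen sensor (-0.97, SE 0.23, limma adjusted p = 0.0478), and Ddit4 (-0.59, SE 0.14, limma adjusted p = 0.0484) were lower in tumoral arrays, as was the glycolysis gene Ldha (-0.51, SE 0.12, limma adjusted p = 0.0474). Bnip3 missed the threshold at -0.69 (SE 0.17, limma adjusted p = 0.0513). Of 18 interferon response genes, Mx1 (0.57, SE 0.13, limma adjusted p = 0.0431) and Gbp3 (0.63, SE 0.13, limma adjusted p = 0.0399) were higher in tumoral arrays, and the list's median was 0.58. Of 12 keratin and carcinoma cell genes 3 were lower in tumoral arrays, among them Krt8 (-0.74, SE 0.15, limma adjusted p = 0.0399). Krt8 averaged 8.80 in the peritumoral and 7.58 in the tumoral arrays of class C. That is a wider difference than the -0.74 fitted over both classes, so the label difference of Krt8 was smaller in class B.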

How the data were processed

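CD11b+ cells sorted from lung were profiled on Affymetrix whole-transcript arrays after miRNeasy extraction and Ambion WT amplification, per the labels' protocols. The authors deposited 28853 probe sets by 16 arrays, read here as log2 expression because values run from 2.31 to 14.33. Neither a log base nor a background correction or normalization is named in the labels or headers, and detection calls and scan batches were not examined. The platform annotation listed 1 symbol for 21789 probe sets, several for 1621 and none for 5443. The probe set with the highest mean was kept for 999 genes with several, which left 19938 genes, and 19855 gene IDs matched the GRCm38.p6 RefSeq table. No filter was set on dim probe sets.

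Classes were described by means, SD, differences with SE and overlap of arrays, with pandas 2.3.3. Folds are 2 to the power of the log2 difference. The label contrast used limma 3.58.1 in R 4.3.3 (lmFit, eBayes, class and label as terms, 7 residual degrees of freedom, two-sided) and was checked on simulated data. The classes, lists and genes were chosen with earlier results of these data known. The lists fixed 648 genes, of which 599 were measured and 49 were not. Genes named were the 12 largest differences without overlap in each direction, up to 4 members per list with the largest differences without overlap (or the largest 1 where none was), the marker and sorting genes, and the 3 smallest label p-values, 1 of which is not reported here. Names outside this rule, chosen after their values were seen, are Zbtb46, Cd163, Hmox1, H2bc4, H3c15, Cd209b, Cd209c, Cd209d, Krt8, Ctsk, Ctss, Ifi30, H2-DMa, Arg1, Ccl8, Cx3cr1, Treml4, Lyve1, Folr2, Atp6v0d2, Fabp4, Abcg1, Sirpa, Tcf4, Bst2, Spib and those described so in the text. Same-numbered arrays give only 2 pairs in these classes, with residual correlations of 0.41 and 0.45, too few to decide a pairing. Alternatives were quantile normalization, median centring, cyclic loess, averaged probe sets, brighter genes, a minimum gap, class medians, no class term, a replicate block, other variance settings and leaving out each array. The values within each label were added after the data were seen. The number of arrays limits the precision.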

Additional observations from a re-analysis of the deposited data

Results flagged for a closer look

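In 18 of 304 groups of 5 arrays (5.92%) of a named gene, an array lay apart from the other 4 by more than Dixon's critical value of 0.71. Chance alone gives about 1 in 20.

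The class C array tumoral4 was the most frequent. It was high for Slc40a1 (9.096, other class C arrays 7.0 to 7.481), for the adhesion gene Vcam1 (11.53, others 10.33 to 10.61), for Ppt1 (11.5, others 11.26 to 11.31), for Pf4 (11.3, others 10.92 to 11.02) and for Dicer1 (9.278, others 9.098 to 9.144). It was low for Psmb1 (9.225, others 9.352 to 9.398). The class C array tumoral7 was high for Il12b (8.688, others 7.973 to 8.035) and low for Inmt (5.797, others 6.24 to 6.415). Peritumoral6 was high for Fcgr2b (12.54, others 12.44 to 12.47), and peritumoral3 was high for the glucose transporter gene Slc2a3 (7.59, others 7.083 to 7.217).

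In class B, peritumoral5 was high for Ak4 (7.611, others 6.42 to 6.75) and low for Bcl11a (8.162, others 8.638 to 8.814), for Wdfy4 (9.82, others 10.41 to 10.55) and for Igf2bp3 (5.71, others 5.816 to 5.839). Tumoral6 was high for Mmp13 (10.1, others 9.26 to 9.434), for Tnfsf9 (11.4, others 11.18 to 11.19) and for Tppp3 (10.41, others 10.11 to 10.19). Tumoral3 was high for H2bc4 (10.55, others 10.02 to 10.16).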

How the results depend on the processing

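The 2063 higher and 1265 lower genes without overlap became 268 and 247 when a gap of at least 0.2 between the classes was required. With median centring they became 2741 and 698. Among the 9969 genes above the median level, 1805 were higher and 687 lower. Leaving out 1 array gave 2115 to 2710 higher genes and 1326 to 2258 lower genes, with 2258 without tumoral3 and 2018 without peritumoral6. At 2-fold or more it gave 15 to 45 higher genes, 15 without tumoral6 and 45 without peritumoral5, and 64 to 83 lower genes. A class of 4 overlaps less often by construction.

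The 406 genes of the label contrast became 0 with cyclic loess (4164 at an unadjusted p under 0.05 by limma), 0 with no class term (2933), 689 among genes above the median level and 1436 with the replicate block. That block was random, because the 2 shared numbers each pair a peritumoral class C array with a tumoral class B array and a fixed block could not be estimated with the class. Leaving out 1 array gave 0 to 1797 genes, and the cause was not tested.

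Of 2584 alternative values of the 152 named genes, 2538 moved by less than the spread between arrays, 46 moved by more and 0 reversed. All but Ifit2 kept their sign within both labels. Of the 152 genes, all but Ifit2, Itgax and H2-Ab1 were without overlap. Without overlap, the sign cannot change within a label or when an array is left out, so those values do not test the direction. Scaling can change a sign. Of 456 values under other scalings, 440 moved by less than the spread, 16 moved by more and 0 reversed. List medians for chemokine receptors, keratin genes, Ms4a genes and CXC chemokine ligand genes changed sign under all 3 scalings, those for monocyte, type 2 activation and fibroblast genes with median centring, and that for lipid handling with cyclic loess.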

Other observations

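Further genes without overlap between the classes were chosen after their values were seen and are given as values. Hpgd, which degrades prostaglandins, measured 10.15, 10.10, 10.54, 10.38 and 10.81 in class B and 8.91, 9.29, 8.47, 9.10 and 8.53 in class C, beside 11.04 to 12.03 in class A. Fgfr1, a fibroblast growth factor receptor, was 3.34-fold lower in class C, by -1.08 among peritumoral arrays and by more among tumoral ones. Cxcl13, a B cell attractant, averaged 10.65 ± 0.31 in class B and 9.18 ± 0.86 in class C. Slc2a3, a glucose transporter, measured 8.52, 8.30, 8.94, 8.42 and 9.20 in class B and 7.59, 7.22, 7.12, 7.08 and 7.20 in class C, the opposite direction to the glycolysis list, and class A spanned 9.19 to 9.46.

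Other genes chosen in the same way were higher in class C, while the macrophage genes Timd4 (-1.97), Cd163 (-0.98) and, with overlap, Lyve1 (-0.45, SE 0.31) had lower class C means. Folr2, of the same macrophage list as Timd4 and Lyve1, went the other way, also with overlap (0.86, SE 0.24). Maf, a transcription factor of macrophages, averaged 9.39 ± 0.20 in class B and 10.26 ± 0.40 in class C, and Tfec, a relative of the lysosomal regulator TFEB, 9.22 ± 0.49 and 10.29 ± 0.20. Acp5, an acid phosphatase of osteoclasts and macrophages, measured 10.32, 10.79, 10.20, 10.33 and 10.06 against 11.75, 11.87, 10.97, 11.30 and 10.91. The scavenger receptor gene Stab1 differed by 0.89 (SE 0.17), the bridging ligand gene Gas6 by 0.97 (SE 0.22), Cd93 by 0.92 (SE 0.13) and Vcam1 by 0.97 (SE 0.24, with tumoral4 at 11.53).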
